A study of Mus musculus with 12 samples.

Results

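The genes described here are 10 transcription factor genes of the myeloid lineage, *Spi1*, *Runx1*, *Cebpa*, *Cebpb*, *Cebpd*, *Cebpe*, *Gfi1*, *Irf8*, *Klf4* and *Id2*. They were found by symbol among the 54104 Ensembl gene identifiers of a matrix of expression values, and each symbol had 1 identifier. All 10 were among the 13610 genes that passed the filter on low values, which asked for at least 1 FPKM (fragments per kilobase, scaled to the mapped fragments of each library) in at least 3 of 12 libraries. The lowest level of any of the 10 in any library was 1.02 FPKM, so the filter removed none of them.

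The values came from bulk RNA sequencing of 12 mouse libraries, 3 in each of 4 groups labelled Ly6C tumor, Ly6C spleen, Ly6G tumor and Ly6G spleen. The series describes monocytic and polymorphonuclear myeloid-derived suppressor cells, immature myeloid cells that accumulate in tumor-bearing hosts and are usually told apart by the surface proteins Ly6C and Ly6G. Its title names a MAPK inhibitor, but no library was labelled as treated, and the labels gave no strain, genotype, age, tumor model or sorting gate. Nothing stated that the 3 libraries of a group came from separate animals, so the p-values measure the spread between these libraries only.

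Myeloid cells are specified by a small set of transcription factors that act in combination and at different doses. PU.1 (*Spi1*) and RUNX1 open the regulatory regions of myeloid genes in progenitors, C/EBP factors drive the granulocyte and monocyte program in successive steps, and GFI1 and IRF8 oppose each other at the branch between neutrophils and monocytes. KLF4 acts in monocytes, and ID2 blocks the DNA binding of E proteins.

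Promoter sequences from RefSeq (build GRCm38.p6, 250 bases before to 50 after a gene's start) were matched for 7 of the 10 genes, with 10 promoters in all. Shown are those of *Cebpa*, *Cebpb* and *Runx1*, because these genes were higher in Ly6G tumor than in Ly6G spleen. They lie at chr7:35119043-35119342 on the plus strand (*Cebpa*), chr2:167688665-167688964 on the plus strand (*Cebpb*), and chr16:92826025-92826324 and chr16:92697280-92697579 on the minus strand (*Runx1*, promoters 1 and 2). Each is given 5′ to 3′ on the strand of its gene, and capitals mark matches to a searched motif.
Cebpa promoter 1: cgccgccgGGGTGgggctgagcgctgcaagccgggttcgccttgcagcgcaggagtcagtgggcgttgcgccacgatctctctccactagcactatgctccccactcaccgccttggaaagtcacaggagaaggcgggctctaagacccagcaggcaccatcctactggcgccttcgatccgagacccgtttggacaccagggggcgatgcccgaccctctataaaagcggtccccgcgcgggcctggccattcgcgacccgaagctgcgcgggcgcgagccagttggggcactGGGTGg
Cebpb promoter 1: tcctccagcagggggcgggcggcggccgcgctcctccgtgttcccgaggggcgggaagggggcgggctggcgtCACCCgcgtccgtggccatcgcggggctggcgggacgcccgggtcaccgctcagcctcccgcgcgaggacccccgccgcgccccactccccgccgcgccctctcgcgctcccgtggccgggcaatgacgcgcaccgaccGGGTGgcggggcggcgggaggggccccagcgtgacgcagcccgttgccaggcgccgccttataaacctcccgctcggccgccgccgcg
Runx1 promoter 1: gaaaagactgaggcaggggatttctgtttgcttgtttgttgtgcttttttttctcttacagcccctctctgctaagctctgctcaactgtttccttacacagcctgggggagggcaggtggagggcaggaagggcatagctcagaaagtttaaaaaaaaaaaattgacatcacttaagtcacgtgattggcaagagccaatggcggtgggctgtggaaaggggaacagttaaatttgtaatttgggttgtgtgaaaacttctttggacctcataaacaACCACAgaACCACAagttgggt
Runx1 promoter 2: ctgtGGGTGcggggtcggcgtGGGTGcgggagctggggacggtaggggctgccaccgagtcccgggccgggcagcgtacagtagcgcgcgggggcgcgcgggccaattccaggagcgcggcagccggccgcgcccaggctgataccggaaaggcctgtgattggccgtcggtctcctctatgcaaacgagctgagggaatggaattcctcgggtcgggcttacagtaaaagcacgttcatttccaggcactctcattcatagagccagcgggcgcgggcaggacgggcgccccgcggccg

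Motifs of 5 factor families were searched on both strands, and no match overlapped another, so a match on the opposite strand shows as the reverse complement. The KLF motif CACCC was in 5 of the 10 promoters, against 57.5% of all 32851 promoters of the same length. In *Cebpa* it began at positions -242 and 45 from the start of the gene, in *Cebpb* at -177 and -38, and in promoter 2 of *Runx1* at -246 and -229. The RUNX motif TGTGGT was in 1 of the 10, promoter 1 of *Runx1*, where it began at positions 29 and 37 downstream of the start, against 16.8% of all promoters. The letters TTGCNNNAA (C/EBP) and GAGGAAG (PU.1) and the IRF response element (GAAA repeated after a gap) were in none of the 10 windows and in 9.56%, 13.6% and 3.44% of all promoters. A match describes letters, not a bound site.

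Total FPKM was 331681 to 449309 per library, and 10379 to 12337 genes reached 1 FPKM. Fragment counts were not used here, so the depth behind a value is unknown. Mitochondrial transcripts took 1.68% to 11.9% of FPKM. Ly6G tumor replicate 3 (11.9%) and replicate 3 of Ly6C tumor (7.84%) had most. *Ly6g*, which encodes Ly6G, averaged 13 ± 1.03 FPKM in Ly6C tumor, 166 ± 40 in Ly6C spleen, 39.1 ± 13 in Ly6G tumor and 651 ± 63.6 in Ly6G spleen (SD, n = 3). *Ly6c2*, which encodes a Ly6C protein, was at 7.05 ± 0.976 in Ly6C tumor, 247 ± 24.8 in Ly6C spleen, 6.69 ± 1.27 in Ly6G tumor and 214 ± 38.6 FPKM in Ly6G spleen, so its groups overlapped between the labels in both tissues. Neutrophil markers were abundant under both labels in spleen. The summed level of 10 such genes was 1381 to 2616 FPKM in Ly6C tumor against 65020 to 101844 FPKM in Ly6C spleen, and 4273 to 8505 FPKM in Ly6G tumor against 126190 to 160240 FPKM in Ly6G spleen.

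Markers of all leukocytes and of several other cell types moved with the tissue. Their counts are to be read beside the shares of all genes tested. Of those, 30.5% fell and 46.2% rose in Ly6C tumor, and 24.7% fell and 51.5% rose in Ly6G tumor. The summed level of 20 pan-leukocyte genes was 240 to 481 FPKM in Ly6C tumor against 4584 to 5172 FPKM in Ly6C spleen, and 622 to 1064 FPKM in Ly6G tumor against 5601 to 5745 FPKM in Ly6G spleen. All 20 fell in both labels, as did all 10 neutrophil markers (median -4.47 in Ly6C and -4.24 in Ly6G libraries). The summed level of 8 macrophage markers overlapped between tissues. It was 117 to 228 FPKM in Ly6C tumor against 154 to 329 FPKM in Ly6C spleen. In Ly6G tumor it was 97.4 to 303 FPKM against 279 to 649 FPKM in Ly6G spleen. Of these 8 markers, 3 were lower in Ly6C tumor, near the share of all genes, and 6 in Ly6G tumor, and 0 were higher. The 8 monocyte markers summed to 59.1 to 97.9 FPKM in Ly6C tumor against 406 to 817 FPKM in Ly6C spleen, and to 31.6 to 132 FPKM in Ly6G tumor against 254 to 288 FPKM in Ly6G spleen, with 7 lower in Ly6C tumor and 5 lower and 1 higher in Ly6G tumor. Markers of adherent, epithelial and fibroblast cells summed to 1585 to 1709 FPKM in Ly6C tumor against 4.35 to 5.58 FPKM in Ly6C spleen, and to 1204 to 1414 FPKM in Ly6G tumor against 8.62 to 11.4 FPKM in Ly6G spleen. Of the 16 tested, 12 rose in Ly6C and 15 in Ly6G libraries, while *Epcam* was listed at 0 in all 3 Ly6C tumor libraries. In bulk RNA, fewer cells of a type and less RNA per cell cannot be told apart, and the part of these other cells in the results below was not tested.

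Most of the factors were lower in tumor than in spleen, and the labels differed in which ones were not. In Ly6C libraries, 9 of 10 fell in tumor and 0 rose, where 30.5% of all genes tested fell and 46.2% rose (76.7% either way). In Ly6G libraries, 6 fell and 3 rose (*Cebpa*, *Cebpb* and *Runx1*), where 24.7% of all genes fell and 51.5% rose (76.2% either way). A change of any kind was thus common over all genes, and a fall was less so. The median log2 change of the 10 genes was -1.83 in Ly6C and -1.17 in Ly6G libraries, beside 0.27 and 0.43 over all genes tested. A gene was called where the Benjamini-Hochberg adjusted p of limma's moderated test over all genes was under 0.05, and each change is a difference of log2(FPKM + 1) with its standard error (n = 3 per group), which understates the change of genes near 1 FPKM.

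**Figure D1:**
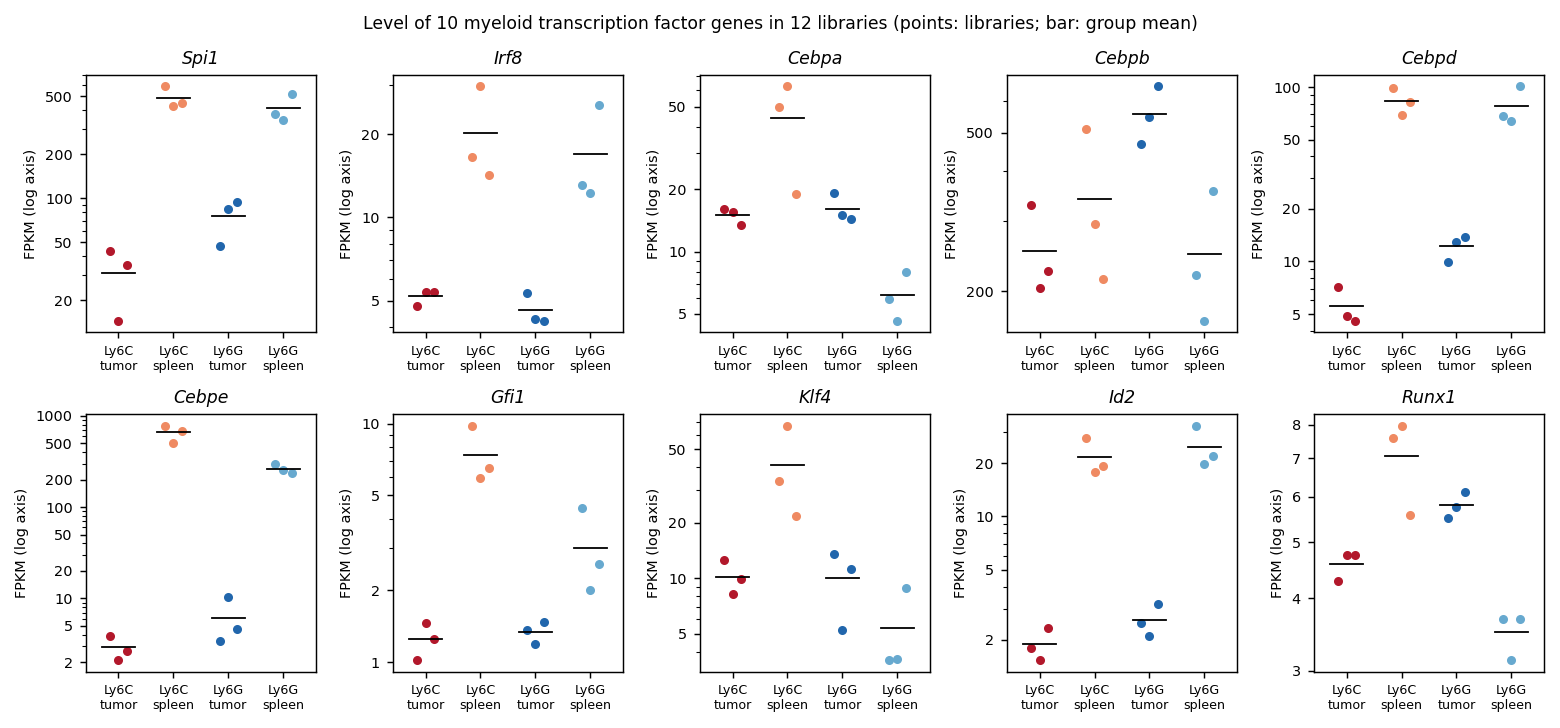
Level of each of the 10 transcription factor genes in FPKM (log axis) in the 12 libraries, by group. Points are libraries and bars are group means. *Cebpe* was at 2.12 to 3.91 FPKM in Ly6C tumor against 506 to 782 FPKM in Ly6C spleen, the widest gap of the 10 genes, whereas the Ly6C tumor and Ly6C spleen libraries of *Cebpb* overlapped.

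*Spi1* encodes PU.1, the ETS factor that myeloid cells need from progenitor to mature stages (ENSMUSG00000002111, GRCm38 chromosome 2, 91082390 to 91115756, plus strand). It was at 43.6, 14.5 and 34.7 FPKM in Ly6C tumor libraries, against 584, 431 and 450 FPKM in Ly6C spleen libraries. Ly6G tumor libraries held 47.2, 84.6 and 94.8 FPKM, against 378, 343 and 516 FPKM in Ly6G spleen libraries. Every tumor library lay below every spleen library, and Ly6C tumor replicate 2 was the lowest of the 12. The mean was 15.8-fold lower in Ly6C tumor than in Ly6C spleen (log2 change -4.06 ± 0.37, limma adjusted p = 9.37e-07) and 5.45-fold lower in Ly6G tumor than in Ly6G spleen (-2.47 ± 0.37, limma adjusted p = 6.82e-05). Among genes tested its level ranked at percentile 76.1 to 91.5 in Ly6C tumor and 99.4 to 99.6 in Ly6C spleen.

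*Runx1* encodes the DNA-binding subunit of core-binding factor, required for blood stem cells to emerge in the embryo and active in adult myeloid progenitors (ENSMUSG00000022952, chromosome 16, 92601466 to 92826149, minus strand). Its levels spanned a narrow range, 4.28, 4.76 and 4.75 FPKM in Ly6C tumor against 7.59, 7.97 and 5.59 FPKM in Ly6C spleen. In Ly6G tumor it was at 5.52, 5.77 and 6.12 FPKM, against 3.69, 3.13 and 3.68 FPKM in Ly6G spleen. The libraries of the 2 tissues did not overlap under either label, but they lay in opposite order. *Runx1* fell by 0.51 ± 0.13 in Ly6C tumor (limma adjusted p = 0.00275) and rose by 0.60 ± 0.13 in Ly6G tumor (limma adjusted p = 0.000971). The rise was 0.15 under median-of-ratios scaling and 0.11 after quantile normalization, past the threshold under neither.

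The C/EBP genes diverged from each other. *Cebpa* encodes the factor that takes progenitors into the granulocyte and monocyte lineage (ENSMUSG00000034957, chromosome 7, 35119293 to 35121928, plus strand). It was at 16.1, 15.5 and 13.4 FPKM in Ly6C tumor against 50, 62.8 and 19 FPKM in Ly6C spleen, and at 19.1, 15 and 14.3 FPKM in Ly6G tumor against 5.93, 4.64 and 7.99 FPKM in Ly6G spleen. The tumor levels of the labels overlapped. Every Ly6C spleen library lay above the Ly6C tumor libraries, and every Ly6G spleen library lay below the Ly6G tumor libraries. *Cebpa* fell by 1.33 ± 0.35 in Ly6C tumor (limma adjusted p = 0.00395) and rose by 1.27 ± 0.35 in Ly6G tumor (limma adjusted p = 0.00537).

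*Cebpb* encodes the C/EBP factor of emergency granulopoiesis and macrophage activation (ENSMUSG00000056501, chromosome 2, 167688915 to 167690418, plus strand). It stayed among the most abundant transcripts in every group, with levels of 330, 204 and 225 FPKM in Ly6C tumor against 512, 296 and 215 FPKM in Ly6C spleen. Ly6G tumor libraries were at 468, 547 and 654 FPKM, against 220, 169 and 358 FPKM in Ly6G spleen. The Ly6C tissues overlapped (log2 change -0.37 ± 0.34, limma adjusted p = 0.338), and all Ly6G tumor libraries lay above all Ly6G spleen libraries (1.21 ± 0.34, limma adjusted p = 0.00614). Its level was at percentile 97.9 or higher among genes tested in all 12 libraries. With median-of-ratios scaling the change in Ly6G libraries was 0.67 and did not pass, and after quantile normalization the fall in Ly6C libraries was -0.94 and passed.

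*Tmem189* overlaps *Cebpb* on the opposite strand and varied alongside it, with 31.0 ± 5.17 FPKM in Ly6C tumor, 35.8 ± 2.77 in Ly6C spleen, 83.6 ± 23.3 in Ly6G tumor and 26.5 ± 1.38 in Ly6G spleen (SD, n = 3). Whether fragments were counted by strand was not given in the sources used here, so reads of the overlapping stretch cannot be told apart.

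*Cebpd* encodes a C/EBP factor induced in acute inflammation (ENSMUSG00000071637, chromosome 16, 15887286 to 15891031, plus strand). It was at 7.14, 4.89 and 4.58 FPKM in Ly6C tumor against 98.8, 69.1 and 81.7 FPKM in Ly6C spleen, and at 9.99, 12.9 and 13.8 FPKM in Ly6G tumor against 67.9, 64.0 and 101 FPKM in Ly6G spleen. The tissues did not overlap under either label, and neither did the labels within tumor. It fell by 3.69 ± 0.21 in Ly6C tumor (limma adjusted p = 2.16e-08) and fell by 2.55 ± 0.21 in Ly6G tumor (limma adjusted p = 5.2e-07). *Spidr*, which overlaps it on the opposite strand, stayed between group means of 3.09 and 3.99 FPKM.

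*Cebpe* encodes the C/EBP factor of terminal granulocyte differentiation, needed for secondary granule proteins (ENSMUSG00000052435, chromosome 14, 54710360 to 54712174, minus strand). Ly6C tumor libraries held 3.91, 2.12 and 2.68 FPKM, against 782, 506 and 682 FPKM in Ly6C spleen. In Ly6G tumor it was at 3.4, 10.5 and 4.59 FPKM, against 294, 255 and 238 FPKM in Ly6G spleen. It had the widest gap between tissues of the 10 genes under both labels, a mean 226-fold lower in Ly6C tumor (-7.40 ± 0.31, limma adjusted p = 1.66e-09) and 42.5-fold lower in Ly6G tumor (-5.32 ± 0.31, limma adjusted p = 2.75e-08). Neutrophil markers fell beside it under both labels, as given above, and their part in the falls of *Cebpe* and *Gfi1* was not tested.

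*Gfi1* encodes a zinc finger repressor that favors neutrophil over monocyte fate (ENSMUSG00000029275, chromosome 5, 107716657 to 107726036, minus strand). It was the least abundant of the 10 by mean in every group but Ly6C spleen, at 1.02, 1.46 and 1.25 FPKM in Ly6C tumor against 9.83, 5.92 and 6.53 FPKM in Ly6C spleen, and at 1.36, 1.19 and 1.47 FPKM in Ly6G tumor against 4.43, 2.01 and 2.57 FPKM in Ly6G spleen. The tissues did not overlap under either label. It fell by 1.89 ± 0.21 in Ly6C tumor (limma adjusted p = 6.78e-06) and by 0.73 ± 0.21 in Ly6G tumor (limma adjusted p = 0.00845).

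*Irf8* encodes the interferon regulatory factor that directs monocyte and dendritic cell development (ENSMUSG00000041515, chromosome 8, 120736358 to 120756694, plus strand). It was at 4.78, 5.39 and 5.38 FPKM in Ly6C tumor against 16.5, 29.8 and 14.2 FPKM in Ly6C spleen, and at 5.33, 4.29 and 4.23 FPKM in Ly6G tumor against 13.1, 12.2 and 25.5 FPKM in Ly6G spleen. All tumor libraries lay below all spleen libraries, and the labels overlapped in both tissues. It fell by 1.71 ± 0.28 in Ly6C tumor (limma adjusted p = 0.000159) and by 1.61 ± 0.28 in Ly6G tumor (limma adjusted p = 0.000266).

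The locus *Gm20388* overlaps *Irf8* on the same strand, and shared reads make the level of *Irf8* uncertain. It was listed at 24.4 to 27.9 FPKM in Ly6C tumor, 0 to 20.8 in Ly6C spleen, 0 to 25.7 in Ly6G tumor and 0 in all 3 Ly6G spleen libraries. B cells also express *Irf8*, and their 10 markers summed to 5.39 to 8.83 FPKM in Ly6C tumor against 258 to 397 FPKM in Ly6C spleen, and to 5.43 to 8.58 FPKM in Ly6G tumor against 756 to 1311 FPKM in Ly6G spleen. All 10 of them fell under both labels, and their part in the fall of *Irf8* was not tested. The 7 dendritic cell markers summed to at most 4.96 FPKM in any library, and none passed the filter.

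*Klf4* encodes a Krüppel-like factor that promotes monocyte differentiation (ENSMUSG00000003032, chromosome 4, 55527143 to 55532466, minus strand). It was at 12.5, 8.18 and 9.87 FPKM in Ly6C tumor against 33.8, 67.1 and 21.6 FPKM in Ly6C spleen, and at 13.6, 5.23 and 11.2 FPKM in Ly6G tumor against 3.61, 3.64 and 8.86 FPKM in Ly6G spleen. The Ly6C tissues did not overlap, and the Ly6G tissues did. *Klf4* fell by 1.77 ± 0.43 in Ly6C tumor (limma adjusted p = 0.00265), and its change in Ly6G tumor was 0.80 ± 0.43 (limma adjusted p = 0.111). The change in Ly6G tumor was 1.17 without Ly6G tumor replicate 2 and also 1.17 without Ly6G spleen replicate 3, and it passed in both cases. KLF4 is also made by epithelial cells, whose markers rose in tumor as given above. The part of such cells in the tumor levels of *Klf4*, or of any other of the 10 factors, was not tested.

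*Id2* encodes a partner of E proteins that lacks a DNA-binding region and is needed for several dendritic and innate lymphoid cell types (ENSMUSG00000020644, chromosome 12, 25093799 to 25097140, minus strand). It was at 1.80, 1.54 and 2.34 FPKM in Ly6C tumor against 27.6, 17.9 and 19.3 FPKM in Ly6C spleen, and at 2.49, 2.11 and 3.21 FPKM in Ly6G tumor against 32.6, 19.7 and 22.0 FPKM in Ly6G spleen. Every tumor library lay below every spleen library, with changes of -2.95 ± 0.21 in Ly6C tumor (limma adjusted p = 1.29e-07) and -2.82 ± 0.21 in Ly6G tumor (limma adjusted p = 2.19e-07). T and NK cells also express *Id2*. Their 9 markers summed to 0.185 to 0.553 FPKM in Ly6C tumor against 8.13 to 16.0 FPKM in Ly6C spleen, and to 0.450 to 1.14 FPKM in Ly6G tumor against 33.5 to 62.4 FPKM in Ly6G spleen, and their part in the fall of *Id2* was not tested.

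**Figure D2:**
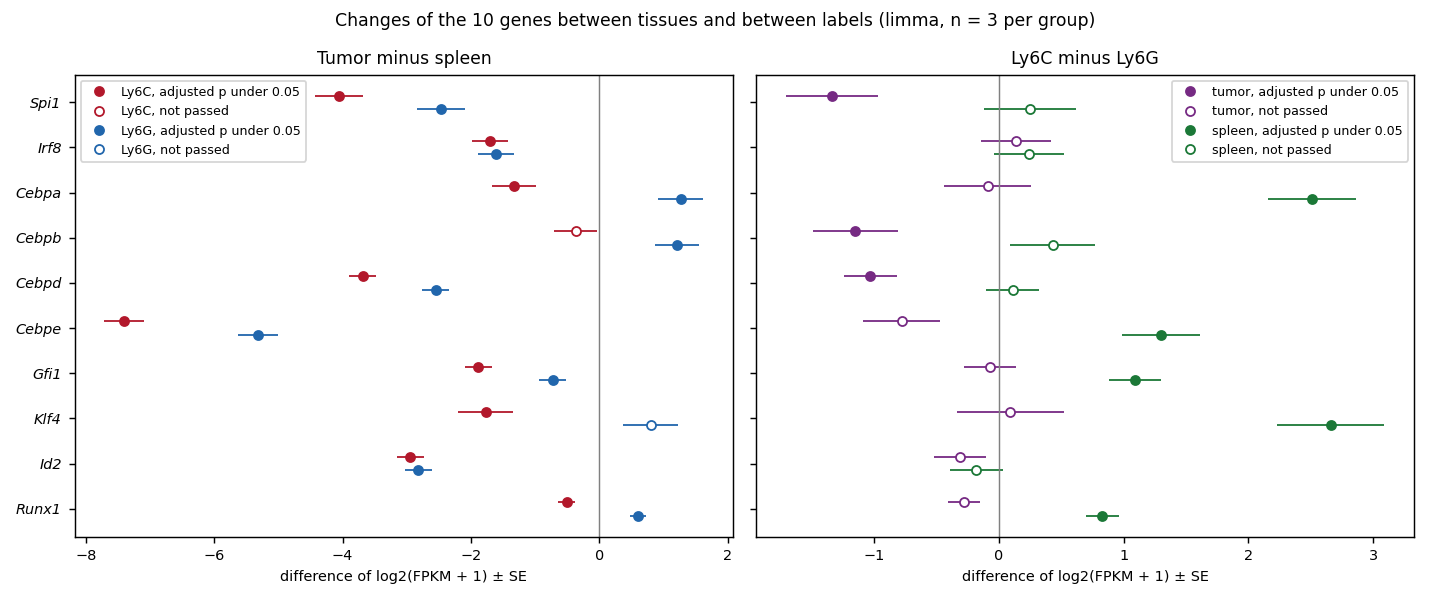
Difference in log2(FPKM + 1) with its standard error for the 10 genes in each comparison (n = 3 libraries per group), from limma. *Cebpa*, *Cebpb* and *Runx1* lie above 0 in Ly6G tumor against Ly6G spleen (1.27, 1.21 and 0.60) and below 0 in Ly6C tumor against Ly6C spleen (-1.33, -0.37 and -0.51). The -0.37 of *Cebpb* did not pass.

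Within tumor the labels differed in few of these genes. *Spi1*, *Cebpb* and *Cebpd* were lower in Ly6C tumor than in Ly6G tumor, 3 of the 10 against 8.7% of all genes tested, and 0 were higher against 5.8% (14.5% of all genes either way). The changes were -1.34 ± 0.37 for *Spi1* (limma adjusted p = 0.0355), -1.15 ± 0.34 for *Cebpb* (0.043) and -1.03 ± 0.21 for *Cebpd* (0.012), and the means were 2.44, 2.20 and 2.21 times as high in Ly6G tumor. *Runx1* also did not overlap, with every Ly6C tumor library below every Ly6G tumor library, but its change of -0.28 ± 0.13 did not pass. The other 6 genes overlapped, including *Cebpe*, whose Ly6G tumor replicate 2 was at 10.5 FPKM and whose change was -0.78 ± 0.31 (limma adjusted p = 0.11).

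The calls within tumor were lost when single libraries were left out. *Spi1* did not pass without Ly6C tumor replicate 2 (-0.88), Ly6C tumor replicate 3 (-1.48), Ly6G tumor replicate 2 (-1.22) or Ly6G tumor replicate 3 (-1.14). *Cebpb* did not pass without any of the 6 tumor libraries, with changes of -1.36, -1.01 and -1.08 without Ly6C tumor replicates 1, 2 and 3 and of -1.27, -1.16 and -1.03 without Ly6G tumor replicates 1, 2 and 3, or without Ly6G spleen replicate 1 (-1.15). *Cebpd* did not pass without Ly6C tumor replicate 3 (-0.92, limma adjusted p = 0.052) or Ly6G tumor replicate 3 (-0.94, limma adjusted p = 0.0511). These libraries had the highest mitochondrial shares. With both left out, both tumor groups were smaller and 0 of the 10 genes passed. The changes were then -1.29 for *Spi1*, -0.96 for *Cebpb* and -0.84 for *Cebpd*. Pan-leukocyte genes moved the same way as the 3 factors, with 16 of 20 lower in Ly6C tumor than in Ly6G tumor and a median change of -1.03. Scaling libraries to those genes moved the median change of all genes to 1.10 and those of *Cebpb* and *Cebpd* to 0.03 each. Relative to the median of all genes, both were at -1.08 after that scaling, beside -1.19 for *Cebpb* and -1.06 for *Cebpd* as deposited. These relative values were bound to stay close, because that scaling shifts all genes of a library nearly alike.

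Within spleen the direction was the opposite, and other factors carried it. *Cebpa*, *Cebpe*, *Gfi1*, *Klf4* and *Runx1* were higher in Ly6C spleen than in Ly6G spleen, 5 of the 10 against 22.1% of all genes tested, and 0 were lower against 8.59% (30.6% of all genes either way). The mean of *Klf4* was 7.61-fold higher in Ly6C spleen (2.66 ± 0.43, limma adjusted p = 0.00104) and that of *Cebpa* 7.10-fold higher (2.51 ± 0.35, limma adjusted p = 0.000447). *Cebpe* was 2.5-fold higher (1.30 ± 0.31, limma adjusted p = 0.00865), *Gfi1* 2.47-fold higher (1.09 ± 0.21, limma adjusted p = 0.00315) and *Runx1* 2.01-fold higher (0.83 ± 0.13, limma adjusted p = 0.00072). None of the 5 overlapped between the labels, which rests on the same values as their calls and adds no separate support. The share of all genes without overlap was not computed. Those 5 genes include a factor of monocyte fate (*Klf4*) and factors of granulocyte fate (*Cebpe* and *Gfi1*).

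*Spi1*, *Irf8*, *Cebpb*, *Cebpd* and *Id2* overlapped between the labels in spleen, with changes of 0.25, 0.24, 0.43, 0.11 and -0.18 (limma adjusted p from 0.387 to 0.763). The 5 calls passed in every fit that left out 1 library. When libraries were scaled to the pan-leukocyte genes, *Gfi1* (0.87) and *Runx1* (0.70) did not pass. B cell markers were lower in Ly6C spleen than in Ly6G spleen for 10 of 10 genes (median -1.23), and erythroid markers for 10 of 10 (median -1.61), whereas 4 of 8 monocyte markers were higher and 5 of 10 neutrophil markers lower. Their part in the 5 changes was not tested.

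The tumor effect itself was set against the label by an interaction term, Ly6C tumor minus Ly6C spleen less Ly6G tumor minus Ly6G spleen. It was lower in Ly6C for 8 of the 10 genes, against 15.8% of all genes tested, and higher for 0, against 6.02% (21.8% of all genes either way). The differences were -2.60 ± 0.49 for *Cebpa* (limma adjusted p = 0.00428), -2.57 ± 0.61 for *Klf4* (0.0128) and -2.08 ± 0.44 for *Cebpe* (0.0074). *Runx1* (-1.11 ± 0.18, limma adjusted p = 0.00205), *Gfi1* (-1.16 ± 0.30, 0.0201), *Cebpd* (-1.14 ± 0.30, 0.0207), *Cebpb* (-1.58 ± 0.48, 0.0357) and *Spi1* (-1.59 ± 0.52, 0.0486) passed as well. Of the 8 genes, 5 (*Cebpa*, *Klf4*, *Cebpe*, *Gfi1* and *Runx1*) were also higher in Ly6C spleen, and the same spleen libraries enter both comparisons.

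*Irf8* (-0.10 ± 0.40, limma adjusted p = 0.881) and *Id2* (-0.13 ± 0.30, 0.783) did not pass, and their tumor effects were -1.71 and -1.61, and -2.95 and -2.82, in Ly6C and Ly6G libraries. The differences of *Spi1* and *Cebpb* were the least stable. *Spi1* did not pass without any 1 of 9 libraries (-1.13 to -1.74) and *Cebpb* without any 1 of 7 (-1.24 to -1.58). *Cebpd* did not pass without Ly6C tumor replicate 3 (-1.04).

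Read within a library, the 4 C/EBP genes changed their proportions between tissues. *Cebpb* made up 90.1% to 92.4% of their summed FPKM in Ly6C tumor against 21.5% to 35.5% in Ly6C spleen, and 93.4% to 95.2% in Ly6G tumor against 34.4% to 50.7% in Ly6G spleen. *Cebpe* made up 0.933% to 1.10% in Ly6C tumor against 54.2% to 68.4% in Ly6C spleen, and 0.668% to 1.80% in Ly6G tumor against 33.8% to 51.7% in Ly6G spleen. In spleen *Cebpe* was thus the largest part of the C/EBP transcripts in all 3 Ly6C libraries, and in tumor *Cebpb* was in all 6. The Ly6G spleen libraries were split. *Cebpe* was the largest part in replicates 1 (50%) and 2 (51.7%), and *Cebpb* in replicate 3 (50.7%, against 33.8% for *Cebpe*). *Cebpd* went with *Cebpe* at a lower share, 1.86% to 2.16% in Ly6C tumor against 6.85% to 8.19% in Ly6C spleen, and 1.99% to 2.21% in Ly6G tumor against 11.5% to 14.4% in Ly6G spleen. These shares are ratios within a library, which a factor common to all its genes leaves as they are. Quantile normalization is no such factor and can change them.

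**Figure D3:**
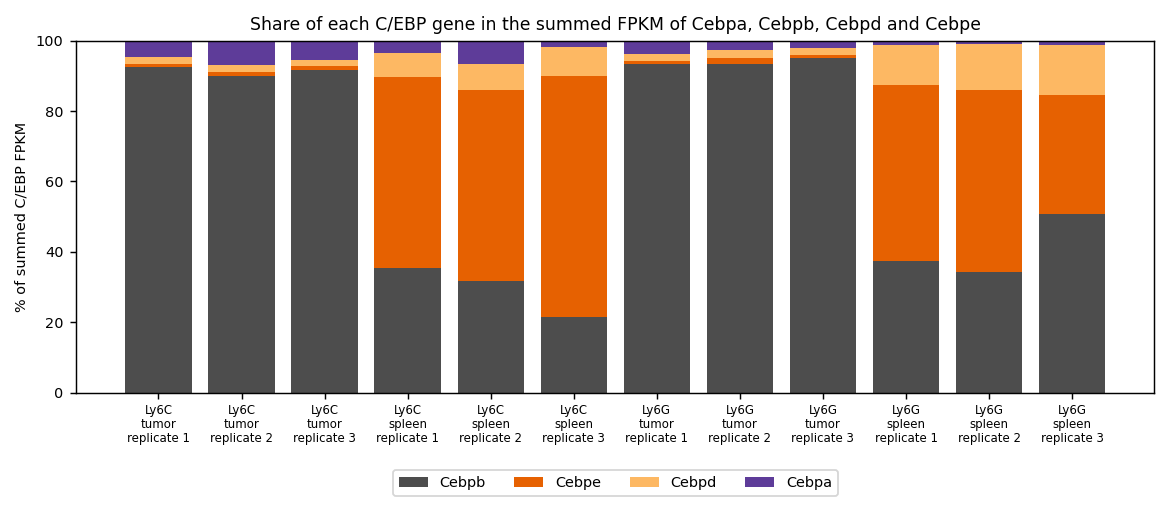
Share of each C/EBP gene in the summed FPKM of *Cebpa*, *Cebpb*, *Cebpd* and *Cebpe*, in percent, for each of the 12 libraries. *Cebpb* holds 90.1% to 95.2% in the tumor libraries. In the spleen libraries *Cebpe* holds 33.8% to 68.4% and *Cebpb* 21.5% to 50.7%, and *Cebpb* is the larger in Ly6G spleen replicate 3.

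Ratios between pairs of factors, given here without a test, separated the tissues in some pairs and not in others. The ratio of *Klf4* to *Cebpe* was 3.20, 3.87 and 3.68 in Ly6C tumor against 0.0433, 0.133 and 0.0318 in Ly6C spleen, and 4.0, 0.497 and 2.45 in Ly6G tumor against 0.0123, 0.0143 and 0.0371 in Ly6G spleen. Every tumor library was above every spleen library, and Ly6G tumor replicate 2 was the lowest of the tumor libraries. The ratio of *Irf8* to *Gfi1* was 3.69 to 4.70 in Ly6C tumor against 1.68 to 5.03 in Ly6C spleen, and 2.87 to 3.92 in Ly6G tumor against 2.97 to 9.91 in Ly6G spleen. Its groups overlapped between tissues and between labels.

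*Cebpb* to *Cebpa* was 13.1 to 20.4 in Ly6C tumor against 4.71 to 11.3 in Ly6C spleen, while its range of 24.5 to 45.7 in Ly6G tumor overlapped 36.5 to 44.7 in Ly6G spleen. The labels did not overlap in either tissue for this ratio. *Spi1* to *Cebpa* was 0.932 to 2.70 in Ly6C tumor, 6.86 to 23.7 in Ly6C spleen, 2.47 to 6.62 in Ly6G tumor and 63.7 to 73.8 in Ly6G spleen, where the Ly6G spleen libraries stood apart from the other 9. *Cebpe* to *Cebpa* was 0.136 to 0.243 in Ly6C tumor against 8.05 to 35.9 in Ly6C spleen, and 0.178 to 0.701 in Ly6G tumor against 29.8 to 54.9 in Ly6G spleen.

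**Figure D4:**
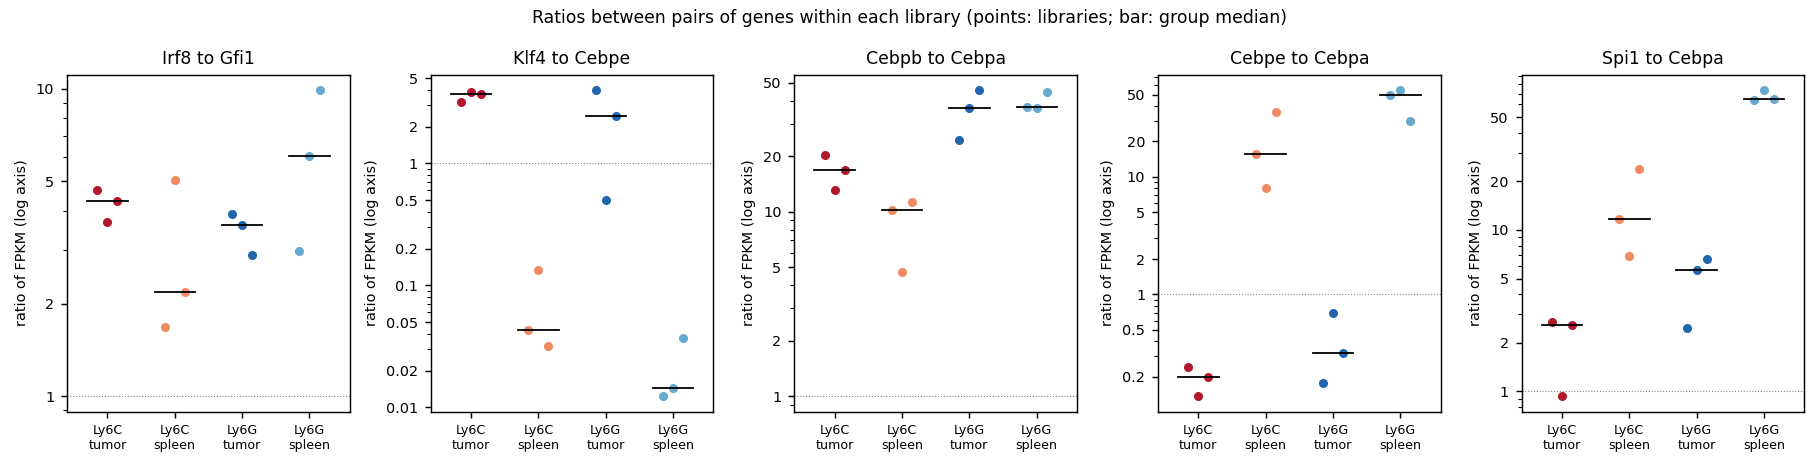
Ratio of FPKM between 5 pairs of factors in each library (log axis), by group. Points are libraries and bars are group medians. *Klf4* to *Cebpe* is 0.497 to 4.0 in tumor and 0.0123 to 0.133 in spleen, whereas *Irf8* to *Gfi1* overlaps between the tissues.

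Genes whose levels went most like each factor over the 12 libraries were found by the root-mean-square difference of log2(FPKM + 1) after each gene's mean was removed. Most pairs share the split between tissues, so likeness describes these libraries and nothing more. *Cebpe* (own SD 3.24) was closest to *Fcnb* (0.40) and *Itgb2l* (0.41), a ficolin and a beta integrin of granulocytes, and to the lectin-like protein gene *Chil3* (0.55). *Spi1* (SD 1.75) was closest to *Hcls1* (0.23), a signaling adaptor of blood cells, *Sema4a* (0.24) and *Foxd4* (0.26), and *Cebpd* (SD 1.62) to *Foxd4* (0.16), *Relt* (0.19) and *Prkd2* (0.22). *Id2* (SD 1.47) lay near *Limd2* (0.22) and the antibody segments *Igkv10-94* and *Ighv1-12* (0.24 each), which were listed at 0 in tumor libraries.

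For *Irf8* (SD 0.89) the closest were *Fam78a* (0.16), *Gpr183* (0.20), a chemoattractant receptor of B cells and others, and *Hfe* (0.20), and for *Gfi1* (SD 0.80) *Gpr160* (0.20), *Neil3* (0.22) and *Rnf166* (0.22). *Runx1* (SD 0.33) was closest to *Lemd3* (0.10), *Naa40* (0.13) and *Eepd1* (0.13), and *Cebpb* (SD 0.62) to the immediate early gene *Ier5* (0.27), *Pnrc1* (0.31) and *Plekhm2* (0.32). *Mfsd7a* was among the closest to both *Cebpa* (SD 0.97, at 0.38, with *Sowahc* at 0.37 and *Pkmyt1* at 0.44) and *Klf4* (SD 1.10, at 0.44, with *Lsr* at 0.40 and *Cd300lg* at 0.48).

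Genes that these factors are known to act on are given next, beside the 30.5% of all genes that fell in Ly6C tumor and the 24.7% in Ly6G tumor. All 7 secondary granule genes fell under both labels (median -7.25 in Ly6C and -5.75 in Ly6G libraries), with *Camp*, the cathelicidin precursor, lowest at -10.35 and -9.03. Its mean was 4.77 ± 3.46 FPKM in Ly6C tumor against 6611 ± 948 FPKM in Ly6C spleen (SD, n = 3). All 4 tested primary granule genes fell as well (median -3.82 in Ly6C and -3.36 in Ly6G), with *Elane*, the neutrophil elastase gene, lowest at -5.15 and -4.02. Of 6 tested receptors for colony-stimulating factors and related cytokines, 6 fell in Ly6C tumor (*Csf2ra*, a GM-CSF receptor chain, at -3.30 ± 0.27) and 5 in Ly6G tumor (*Csf1r*, the M-CSF receptor, at -1.88 ± 0.46), with medians of -2.18 and -0.72. *Csf2rb*, the shared beta chain, was at 0.02 ± 0.43 in Ly6G tumor and did not pass. Under pan-leukocyte scaling *Csf2ra* in Ly6C tumor turned to 0.33 and *Csf1r* in Ly6G tumor to 0.57. The granule genes overlap the neutrophil markers, which include *Ltf*, *Camp*, *Ngp* and *Mmp8*.

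Partner proteins moved less uniformly. Over all genes tested, 46.2% rose and 30.5% fell in Ly6C tumor, and 51.5% rose and 24.7% fell in Ly6G tumor. The counts of each list that follows are to be read beside these shares. Among 10 partners of PU.1, IRF and RUNX factors, 2 rose and 6 fell in Ly6C tumor and 2 rose and 5 fell in Ly6G tumor. *Jun*, an AP-1 subunit, was at 564 ± 92.6 FPKM in Ly6C tumor against 308 ± 94.3 in Ly6C spleen (log2 change 0.91 ± 0.23), and at 643 ± 30.4 in Ly6G tumor against 100 ± 22.9 FPKM in Ly6G spleen (2.69 ± 0.23). *Fli1*, an ETS factor, fell by 3.76 ± 0.19 in Ly6C tumor, and *Spib*, a PU.1 relative of lymphoid cells, by 3.66 ± 0.24 in Ly6G tumor. Of 6 C/EBP partners and regulators, 4 rose and 1 fell in Ly6C tumor and 4 rose and 0 fell in Ly6G tumor. *Trib3*, a pseudokinase of the stress response, rose by 2.43 ± 0.27 and 2.34 ± 0.27, and *Trib1*, which drives degradation of C/EBPα, fell by 1.32 ± 0.17 in Ly6C tumor, with a change of 0.17 ± 0.17 in Ly6G tumor that did not pass. The difference between those *Trib1* effects was -1.49 ± 0.24 (limma adjusted p = 0.00219).

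Of 5 genes for the GFI1 paralog and corepressors, 3 rose and 2 fell in Ly6C tumor and 3 rose and 1 fell in Ly6G tumor, with *Kdm1a*, a histone demethylase, at 1.38 ± 0.13 and 1.35 ± 0.13. *Gfi1b*, the paralog of erythroid cells and platelets, was near 0 in tumor and fell by 1.19 ± 0.11 and 1.79 ± 0.11. Of 4 tested ID and E protein genes, 3 rose in Ly6C and 3 rose and 1 fell in Ly6G tumor. *Id3*, a paralog of *Id2*, was at 15.1 ± 4.83 FPKM in Ly6C tumor against 1.54 ± 0.688 in Ly6C spleen and at 17.0 ± 5.18 in Ly6G tumor against 2.78 ± 1.61 in Ly6G spleen, opposite in direction to *Id2*. Other KLF genes fell for 4 of 6 in Ly6C tumor, *Klf13* with a change of -3.17 ± 0.14, and rose for 2 and fell for 2 in Ly6G tumor.

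Progenitor factors were mostly lower in tumor, 7 of 8 tested under both labels, with *Lyl1*, a bHLH factor of blood progenitors, at -4.92 ± 0.26 and -3.51 ± 0.26. *Hoxa9*, a homeobox factor, was the 1 exception under both labels, at 12.4 ± 1.43 FPKM in Ly6C tumor against 0.0275 ± 0.0101 in Ly6C spleen and at 12.6 ± 2.24 in Ly6G tumor against 0.0553 ± 0.0276 FPKM in Ly6G spleen. Markers of adherent, epithelial and fibroblast cells also rose in tumor, as given above, and the part of those cells in the rise of *Hoxa9* was not tested. Of 9 tested monocyte, macrophage and dendritic cell factors, 1 rose and 5 fell in Ly6C tumor and 2 rose and 2 fell in Ly6G tumor. *Irf5*, which drives inflammatory macrophage genes, fell by 2.34 ± 0.38 in Ly6C tumor, and *Bcl6*, a transcriptional repressor, by 1.77 ± 0.16 in Ly6G tumor. *Nr4a1*, a nuclear receptor of Ly6C-low monocytes, fell by 1.56 ± 0.42 in Ly6C tumor and rose by 1.35 ± 0.42 in Ly6G tumor, where the call was lost without Ly6G spleen replicate 2 (0.96).

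Between labels, 14.5% of all genes passed in tumor and 30.6% in spleen, against 76.7% and 76.2% between tissues. Most lists also gave fewer calls, and the receptor list was among the exceptions. In tumor, 5 of 6 receptor genes were lower in Ly6C, with *Csf3r*, the G-CSF receptor, at 44.8 ± 14.3 FPKM in Ly6C tumor against 190 ± 53.8 FPKM in Ly6G tumor (log2 change -2.07 ± 0.30). In spleen *Csf3r* was also lower, at 128 ± 30.0 FPKM in Ly6C against 311 ± 68.4 FPKM in Ly6G libraries (-1.27 ± 0.30), 1 of 2 receptor genes that were, while 3 were higher. Of 7 secondary granule genes, 5 were lower in Ly6C tumor and 1, *Mmp8* (-1.20 ± 0.34), in Ly6C spleen, a call lost without any 1 of 3 libraries (-0.82 to -1.05). *Prtn3*, a primary granule protease, was higher in Ly6C spleen (1.23 ± 0.14), as was *Ikzf1*, which encodes Ikaros (1.45 ± 0.25).

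Scaling each library to its pan-leukocyte genes turned the direction of the change between tissues for 7 of the 10 factors in Ly6C libraries and 3 in Ly6G libraries, and the TPM scale, median-of-ratios factors and quantile normalization turned none. It multiplies all genes of a library alike and moved the median change of all genes tested to 3.07 in Ly6C and 2.16 in Ly6G libraries, from 0.27 and 0.43 as deposited. On that scale 6 of the 10 factors were higher and 1 lower (*Cebpe*) in Ly6C tumor, and 5 were higher and 1 lower in Ly6G tumor. Of the turned values, those of *Id2* in Ly6C (0.13) and of *Spi1* (0.10) and *Irf8* (0.69) in Ly6G libraries did not pass. The change of *Cebpb* in Ly6C libraries had not passed as deposited. Relative to the median of all genes, 10 of the 10 factors lay below it in Ly6C tumor as deposited and 9 after that scaling. In Ly6G tumor it was 6 of 10 in both cases. As the scaling shifts all genes of a library nearly alike, such relative values were bound to stay close. After that scaling *Cebpe* was at -7.16 relative to the median in Ly6C and at -5.03 in Ly6G libraries, and *Spi1* at -3.53 and -2.06.

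The share of called genes that were higher moved with the scaling as well. As deposited it was 60.2% in Ly6C tumor against Ly6C spleen, 67.6% in Ly6G tumor against Ly6G spleen, 40.0% between labels in tumor, 72.0% in spleen and 27.6% for the interaction. Over the other 4 scalings it was 50% to 95.8%, 49.7% to 95.4%, 7.0% to 98.6%, 42.9% to 90.5% and 5.7% to 98.1% in the same order. Those splits describe all genes tested, and the factors are to be read beside them.

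**Figure D5:**
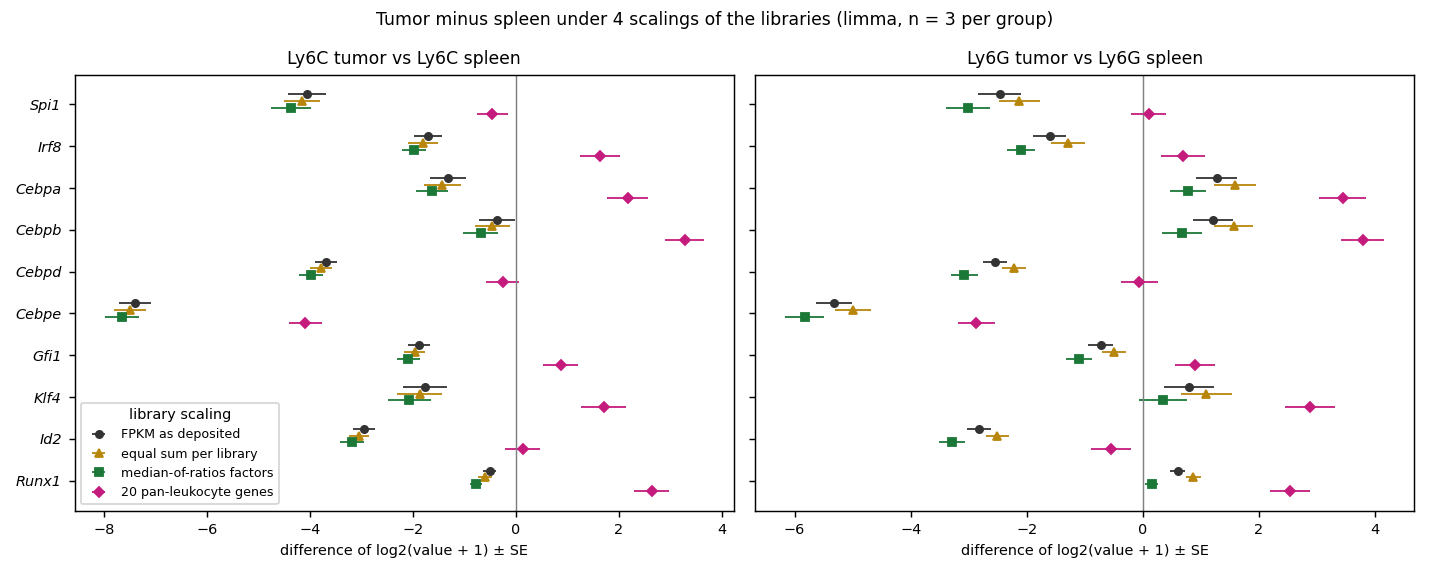
Difference in log2(value + 1) with its standard error between tumor and spleen for the 10 genes, under the values as deposited and 3 other scalings of the libraries (n = 3 per group, limma). The deposited, equal-sum and median-of-ratios values have the same sign for each gene, with *Cebpb* in Ly6G tumor against Ly6G spleen at 1.21, 1.56 and 0.67 and *Runx1* at 0.60, 0.87 and 0.15, and scaling to 20 pan-leukocyte genes moves every gene to the right, with *Cebpe* the 1 gene still called lower in Ly6C tumor.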

How the data were processed

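Total RNA of the 12 libraries was sequenced, and the authors deposited FPKM values per gene and library in 1 matrix, with no stated scaling between libraries. Per the submitters' processing notes, the build was GRCm38 and the tools included featureCounts 1.5.0-p3 and HISAT2 2.0.5. Which tool and annotation gave the FPKM values, and whether counting was stranded, is not given in the sources used here. Of 54674 entries, 570 assembled loci (0.463% to 1.04% of FPKM) were not used, and 66 identifiers had no symbol in GENCODE M21, which also gave the gene coordinates.

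Deposited FPKM were transformed to log2(FPKM + 1) (pseudocount 1), and genes that reached 1 FPKM in 3 or more libraries entered a limma 3.58.1 model of 4 group means over all 12 libraries, with an intensity-dependent prior variance (eBayes, trend) and contrasts between the means. It had 8 residual and 3.4 prior degrees of freedom. Tests were two-sided, and p-values were Benjamini-Hochberg adjusted over 13610 genes, with calls under 0.05. The 5 comparisons were tumor against spleen within each label, Ly6C against Ly6G within each tissue, and the difference of the tumor effects. The model was also run on simulated data in which few genes changed, in a single group. Most genes were called between tissues here, so that run does not measure the error of these calls. Replicates correlated at r = 0.970 to 0.986 across genes within groups, and no depth is known, so no interval for counting error was computed.

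Named genes were the 10 factors in all comparisons, the passing gene with the largest rise and fall of each partner or target list with up to 2 further genes whose role bears on a factor, and the 3 genes closest to each factor in pattern, predicted genes excluded. *Ly6g*, *Ly6c2*, *Epcam* and genes overlapping a factor are named as checks. The 10 factors and all lists were chosen with earlier results of these data known. Alternatives were a pseudocount of 0.1 or 5, no filter or 5 FPKM, rescaling by equal sums (TPM scale), by median-of-ratios factors or by quantiles, scaling to 20 pan-leukocyte genes, fits of the compared groups alone, a model without the variance trend, the replicate number as a block, and leaving out each library. A fit without the pair of libraries richest in mitochondrial transcripts was added after seeing the data. R 4.3.3, Python 3.11.15, pandas 2.3.3, numpy 2.4.6 and matplotlib 3.10.9 were used.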

Additional observations from a re-analysis of the deposited data

Results flagged for a closer look

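The effect of tumor differed between the labels for 8 of the 10 factors, by the interaction term of limma. All 8 were lower, against 15.8% of all genes tested. Its value, the tumor effect in Ly6C less that in Ly6G libraries on the log2 scale, was -2.60 for *Cebpa*, -2.57 for *Klf4*, -2.08 for *Cebpe*, -1.59 for *Spi1*, -1.58 for *Cebpb*, -1.16 for *Gfi1*, -1.14 for *Cebpd* and -1.11 for *Runx1*. *Cebpa* and *Runx1* passed in opposite directions under the labels, with tumor effects of -1.33 and 1.27 and of -0.51 and 0.60 in Ly6C and Ly6G libraries. The rise of *Runx1* in Ly6G tumor depended on the scaling. It was 0.15 under median-of-ratios scaling and 0.11 after quantile normalization, and passed under neither. *Cebpe*, *Cebpd*, *Gfi1* and *Spi1* fell under both labels and further in Ly6C libraries. For *Cebpb* and *Klf4*, 1 of the 2 tumor effects did not pass. *Cebpa*, *Klf4* and *Gfi1* overlapped between labels in tumor (-0.09, 0.09 and -0.07) and differed in spleen (2.51, 2.66 and 1.09). *Spi1*, *Cebpb* and *Cebpd* instead differed in tumor and overlapped in spleen. The interaction of *Spi1* did not pass without any 1 of 9 libraries, and that of *Cebpb* without any 1 of 7. Pan-leukocyte genes moved with these differences, 9 of 20 lower and 0 higher (median -1.01), and scaling libraries to them moved the median difference of all genes to 0.90, against -0.10 as deposited. On that scale 0 of the 10 factors passed. Relative to the median of all genes, 9 of the 10 lay below it (*Cebpa* -2.17, *Klf4* -2.08). The median of the 10 there was -1.26, beside -1.27 as deposited. A single factor per library shifts all genes nearly alike, so values relative to the median were bound to stay close and add no support.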

How the results depend on the processing

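Among the 10 factors, 530 of 590 values under the alternatives other than leaving out a library kept their direction and side of the threshold. Scaling to pan-leukocyte genes changed most. There the factors called were 6 higher and 1 lower in Ly6C tumor against spleen, 5 and 1 in Ly6G tumor against spleen, 5 higher and 0 lower between labels in tumor, 3 higher in spleen and 0 lower for the interaction, and 10323 and 271 genes passed between labels in tumor and in spleen. The direction reversed there in Ly6C tumor for *Irf8* (1.63), *Cebpa* (2.17), *Cebpb* (3.27), *Gfi1* (0.87), *Klf4* (1.70), *Id2* (0.13), *Runx1* (2.63), *Csf2ra* (0.33), *Irf5* (0.95), *Klf13* (0.26) and *Trib1* (2.25), and in Ly6G tumor for *Spi1* (0.10), *Irf8* (0.69), *Gfi1* (0.90), *Bcl6* (0.46), *Csf1r* (0.57), *Id1* (1.19) and *Klf13* (0.89). It also reversed between labels in tumor for *Cebpa* (1.06), *Cebpb* (0.03), *Cebpd* (0.03), *Gfi1* (0.84), *Runx1* (0.79), *Ddit3* (0.20) and *Klf13* (0.23), and for the interaction of *Runx1* (0.09) and *Tcf3* (0.11). Among the factors, some reversed values did not pass on that scale. These were *Id2* in Ly6C tumor, *Spi1* and *Irf8* in Ly6G tumor, *Cebpb* and *Cebpd* between labels in tumor, and the interaction of *Runx1*. As deposited, *Cebpb* in Ly6C tumor and *Cebpa*, *Gfi1* and *Runx1* between labels in tumor had not passed. The cause of the reversals was not tested. With median-of-ratios factors 1 factor was higher in Ly6G tumor and 5 had a lower interaction. With no filter 1 was lower in Ly6C than in Ly6G tumor and 4 had a lower interaction. The filter of 5 FPKM tests fewer genes, of which 6694 and 6648 passed between tissues in Ly6C and Ly6G libraries, against 10443 and 10367. On the TPM scale 4792 genes passed the interaction, against 2972, and fits of the compared groups alone gave 2586 in spleen, against 4171. Without both libraries of highest mitochondrial share 0 factors were lower in Ly6C than in Ly6G tumor and 3 had a lower interaction, with 260 and 1417 genes passing. Leaving out 1 library gave 0 to 3 factors lower between labels in tumor (0 without Ly6C tumor replicate 3 or Ly6G tumor replicate 3, 1 without Ly6C tumor replicate 2 or Ly6G tumor replicate 2), 746 to 2618 genes passing there, against 1974, and 5 to 8 factors with a lower interaction (5 without Ly6C tumor replicate 3). The counts between tissues stayed at 9 lower in Ly6C and at 3 to 4 higher and 6 lower in Ly6G libraries. With the replicate number as a block, 2 factors were lower between labels in tumor, against 3, and 7 had a lower interaction, against 8, as *Cebpb* (-1.15) and *Spi1* (-1.59) did not pass. The block is no pairing by design, since deviations of libraries with the same number correlated at only -0.36 to 0.28. Depth is unknown, so values near 1 FPKM, as for *Gfi1* in tumor, carry an unmeasured counting error.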
